A study of Homo sapiens with 9 samples.

Results

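BCR and ABL1 were followed through every peak list of the series, taking the peaks that overlapped either gene on its own strand. Of the 2472610 merged peaks in the 54 libraries, 1910 lay in these genes, 1074 in BCR and 836 in ABL1, and peaks were found in 14624 of 19962 annotated protein-coding genes. The series used antibody-barcode eCLIP (ABC), in which RNA crosslinked to an RNA-binding protein (RBP) is ligated to a DNA barcode on the antibody, so that several RBPs can be read from a single lysate. The 10plex pools each held libraries of 10 RBPs (DDX3, EIF3G, FAM120A, IGF2BP2, LIN28B, PRPF8, PUM2, RBFOX2, SF3B4 and ZC3H11A), from K562 cells in 3 replicates and from HEK293T cells in 2 replicates. Singleplex libraries, with 1 antibody each, were made for RBFOX2 in HEK293T cells and for SLBP in K562 cells, with 2 replicates each. All cells were UV crosslinked and carried no other treatment in the labels. K562 is a line from a chronic myeloid leukaemia in blast crisis. HEK293T, as the titles name it, is a line from embryonic kidney that carries the SV40 large T antigen, and the study's methods write HEK293XT. Each is a single established line, so cell type and genome cannot be told apart in a comparison between them. The labels do not say whether replicates came from separate cultures, and the p-values below measure only the spread between these samples.

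BCR encodes a GTPase-activating protein with a kinase domain of its own, and ABL1 a tyrosine kinase with SH3 and SH2 domains. In chronic myeloid leukaemia a translocation places the 5′ part of BCR before the 3′ part of ABL1, and the fusion transcript encodes a kinase that is always active. K562 cells are known for several copies of the fusion gene and for a transcript that joins exon 14 of BCR to exon 2 of ABL1, while HEK293T cells are not known to carry it. On GRCh38, BCR (ENSG00000186716.21) lies on the plus strand at chr22:23179704-23318037 with 23 exons, and its intron 14, at chr22:23290414-23292540, is 2127 nt long. ABL1 (ENSG00000097007.20) lies on the plus strand at chr9:130713043-130887675 and has alternative start exons, exon 1b at the start of the gene and exon 1a 120.798 kb into the intron that follows. The whole of intron 1, from exon 1b to exon 2, is 139.608 kb long. BCR was therefore split at intron 14 and ABL1 at the start of exon 2; the genomic break itself was not located here. The exon ends that meet in the fusion transcript are shown first, with the last 15 bases of BCR exon 14 and the first 15 bases of ABL1 exon 2 in capitals.
BCR exon 14 end: actcagccactggatTTAAGCAGAGTTCAA
ABL1 exon 2 start: AAGCCCTTCAGCGGCcagtagcatctgact
The 5′ splice site of BCR exon 14, which held a PRPF8 peak described below, is shown with the start of intron 14 in capitals.
BCR exon 14 donor: cagagttcaaGTAAGTactggtttggggag
RBFOX2 binds GCATG, written here as DNA, and the sites below carry it in capitals inside RBFOX2 peaks shared by all replicates of a cell line. The pair named first was found in K562, in HEK293T and in the singleplex libraries.
BCR RBFOX2 23219848: tgtccccgacctGCATGtaacctgtttcc
ABL1 RBFOX2 130738317: gtaacttgggttGCATGcttactaagttc
BCR RBFOX2 23220303: gtagtgacagctGCATGtttggttctagg
BCR RBFOX2 23280955: ggacatgcccttGCATGggaacacacaca
ABL1 RBFOX2 130752581: aagctagtcactGCATGtatgtatgtatt
The number in each name is the GRCh38 position of the G on the gene's chromosome.

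The pools held 1973993, 3479063 and 2328397 reads in peaks in K562 and 4774142 and 6980833 in HEK293T, and single 10plex libraries held between 7672 reads (PUM2) and 1893695. Reads in the 10plex and SLBP lists were recovered with a minimum of 3 per peak, so their smallest value was set by that step. The singleplex RBFOX2 lists, whose names give the reads, held no peak below 3. A gene or part without a peak had no called peak, which is not the same as no reads. The cell line field of the HEK293T pools names K562, against their titles, and that of K562 replicate 3 names K563. Markers followed the titles: K562 markers (globin, GATA1 and other erythroid genes) held 5542, 11341 and 6718 reads in the K562 pools, with all 8 present, against 26 and 6 reads and 2 of 8 present in the HEK293T pools. HEK293T markers held 15, 26 and 43 reads in the K562 pools against 996 and 1811 in the HEK293T pools, with 5 of 6 present and PAX8 at 0. The external background behind the deposited folds had at most 1 read in 88.6% to 98.7% of K562 peaks but in 6.60% to 24.0% of HEK293T peaks outside RBFOX2, so folds and enriched peaks are described within a cell line and not compared between the lines.

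Both genes held more reads in peaks in K562 than in HEK293T. BCR held 907, 1508 and 1047 reads in the 3 K562 pools and 723 and 1086 in the 2 HEK293T pools, summed over the 10 RBPs. Scaled to 1000000 reads in peaks of the pool (RPM) these were 447.5 RPM ± 13.1 (SD, n = 3) and 153.5 ± 2.92 (SD, n = 2), 2.92-fold higher in K562, and the groups did not overlap. ABL1 held 646, 1266 and 732 reads in K562 and 447 and 566 in HEK293T, or 335.2 ± 25.7 (SD, n = 3) against 87.4 ± 8.87 (SD, n = 2) RPM, 3.84-fold higher in K562, again without overlap. On the log2(RPM + 1) scale the difference was 1.54 ± 0.11 (SE) for BCR (limma, Benjamini-Hochberg adjusted p = 0.000418) and 1.93 ± 0.14 (SE) for ABL1 (limma, adjusted p = 0.000462). Of 13590 genes tested, 1911 or 14.1% were called higher in K562 and 5512 or 40.6% lower, 54.6% in all, and the median difference was -0.68. A larger difference than that of BCR was measured in 1123 genes (8.26%), and than that of ABL1 in 834 genes (6.14%). Centring each pool on its median moved the median of all genes to -0.21 and the calls to 2993 higher and 4067 lower, with 2.01 for BCR and 2.40 for ABL1. With the study's usable reads as the scale the BCR call was lost (1.63, adjusted p = 0.0677), and with peaks kept only above a common depth the differences were 2.58 for BCR and 4.25 for ABL1. These are bulk libraries of bound RNA, so more RNA of a gene and more binding per RNA cannot be told apart.

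The K562 reads of BCR lay almost wholly before intron 14. The 5′ part, to the end of exon 14, held 878, 1477 and 1008 reads in K562 and 601 and 933 in HEK293T. The 3′ part, from exon 15, held 9, 0 and 3 reads in K562 against 118 and 153 in HEK293T, so every HEK293T pool was above every K562 pool. The 5′ part was at 434.1 ± 10.2 RPM (SD, n = 3) in K562 and 129.8 ± 5.49 (SD, n = 2) in HEK293T, 3.35-fold higher in K562. The 3′ part was at 1.95 ± 2.35 RPM (SD, n = 3) in K562 and 23.3 ± 1.98 (SD, n = 2) in HEK293T. The 2 parts thus differed between the lines in opposite directions. The 3′ part made up 0.992% (exact 95% binomial interval 0.455% to 1.88%), 0% and 0.287% (0.0591% to 0.835%) of BCR reads in K562. It made up 16.3% (13.7% to 19.2%) and 14.1% (12.1% to 16.3%) in HEK293T; these intervals cover counting error only. With 3 against 2 pools the exact two-sided permutation test gave p = 0.2, the smallest it can give here.

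**Figure D1:**
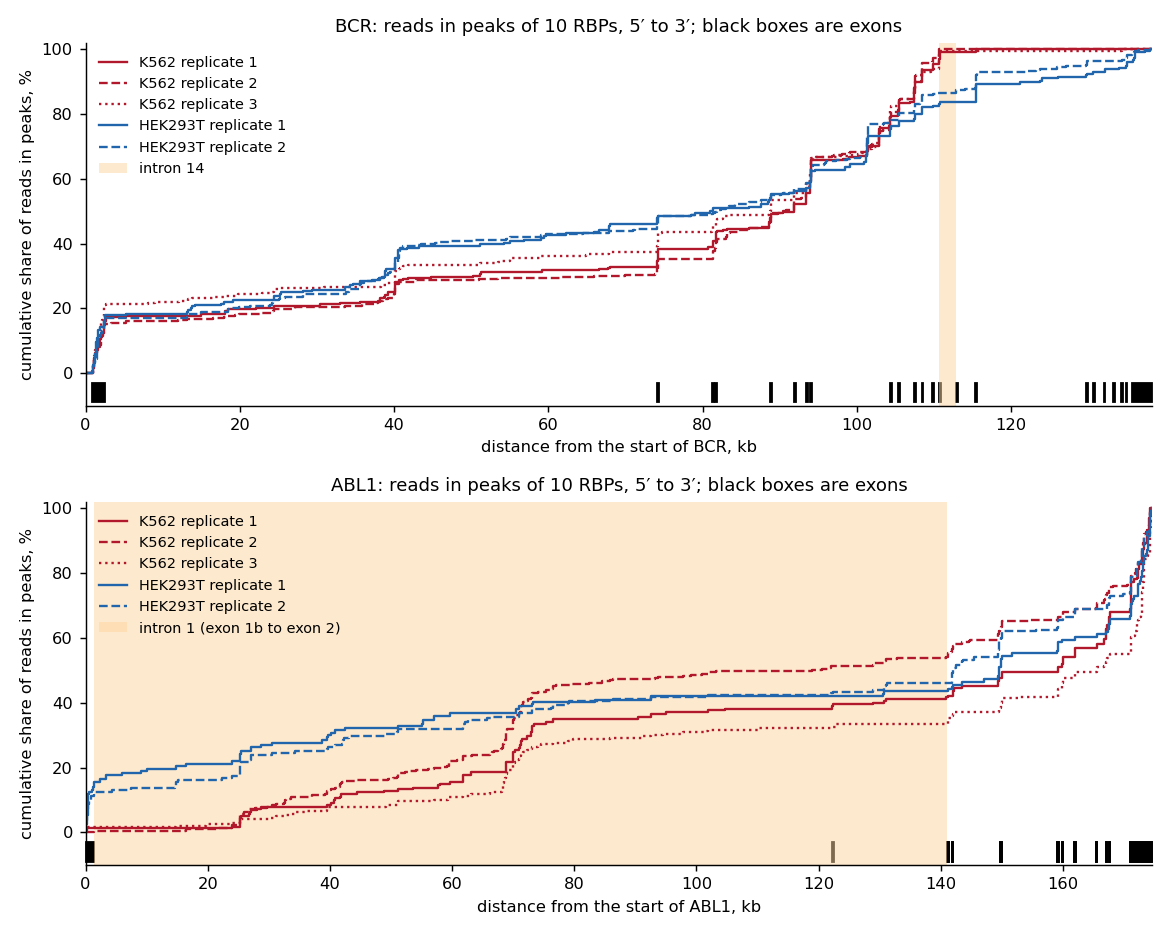
Cumulative share of reads in merged peaks (%, summed over 10 RBPs) against distance from the start of BCR (upper panel) and ABL1 (lower panel) in kb, with a line for each 10plex pool, exons as black boxes and the fusion intron shaded. In BCR the 3 K562 lines reach nearly 100% at intron 14, while the HEK293T lines are still short of it at the start of exon 15. The lines count every merged peak. With touching peaks joined, as in the text, the part from exon 15 held 16.3% and 14.1% in HEK293T. In ABL1 the K562 lines stay near 0 for the first 20 kb.

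In the fit of the 5′ over the 3′ part across all genes, the log2 ratio of BCR was 7.54 in K562 and 2.43 in HEK293T, a difference of 5.11 ± 0.71 (SE; limma, adjusted p = 0.0191). Of 11101 genes tested, with the other genes split at their midpoint, 466 or 4.2% were called in this direction and 8.17% in either. A larger difference in the same direction was measured in 21 genes. The size depends on the pseudocount, since K562 replicate 2 had no 3′ read in peaks. It was 6.001 with a pseudocount of 0.25 (limma, adjusted p = 0.064) and 3.98 with 4 (limma, adjusted p = 0.00343). The call was lost without K562 replicate 2 (4.52, limma adjusted p = 0.0533), K562 replicate 3 (5.10, 0.0517), HEK293T replicate 1 (4.99, 0.1005) or HEK293T replicate 2 (5.24, 0.123), and held without K562 replicate 1 (5.72, 0.0378). It was also lost with each RBP given equal weight (4.62, limma adjusted p = 0.0715), a setting chosen after seeing the data. Genes called by parts fell from 907 to 15 without HEK293T replicate 1 and to 14 without HEK293T replicate 2. Counting intron 14 with the 3′ part gave 2.55 (limma, adjusted p = 0.0173), and splitting BCR at intron 13 gave 2.34 (limma, adjusted p = 0.0243).

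Beyond intron 14, exon 15 held no K562 reads and 0 and 12 in HEK293T, and exon 16 was the first exon at which both HEK293T pools stood above all K562 pools. Reads in exons 1 to 14 were 495, 854 and 590 in K562 and 244 and 409 in HEK293T. Reads in exons 15 to 23 were 0, 0 and 3 in K562 and 77 and 88 in HEK293T, which was 24.0% and 17.7% of all BCR exon reads in HEK293T. Exon 16 held most of the HEK293T exon reads beyond intron 14, 41 and 45 reads, and none in K562. The last exon, which holds the 3′ UTR, had 28 and 21 reads in HEK293T and none in K562, and among them was a LIN28B peak shared by both HEK293T pools with 12 and 4 reads (chr22:23315700-23315772). All the 3′ reads of K562 came from 2 peaks, a PRPF8 peak of 9 reads in intron 16 in replicate 1 and a ZC3H11A peak of 3 reads in exon 21 in replicate 3. In HEK293T the 3′ reads came from 8 of the 10 RBPs, led by PRPF8 (40 and 62) and RBFOX2 (37 and 41). Each of these RBPs had a higher mean RPM over the whole gene in K562 than in HEK293T, and RBFOX2 had 0 K562 reads in the 3′ part in all 3 pools. BCR has 9 annotated partial copies (BCRP genes), whose reads may not be separable from its own; the K562 pools had no peak in any of them and the HEK293T pools had 1.

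Intron 14 itself held 20, 31 and 36 reads in K562 and 4 and 0 in HEK293T. PRPF8, a core protein of the spliceosome that is found just downstream of 5′ splice sites, gave 15, 24 and 26 of the K562 reads in a peak across the 5′ splice site of exon 14 (chr22:23290387-23290476), whose sequence is given above. FAM120A gave 5, 7 and 7 and RBFOX2 0, 0 and 3. SF3B4, a subunit of the U2 snRNP that binds near branch points, had a K562 peak that ended at the base before exon 14 (chr22:23290277-23290338) with 8, 7 and 12 reads. Exon 14 thus had a peak of a splicing factor at each end in every K562 replicate. In HEK293T PRPF8 had 4 and 0 reads in intron 14, and intron 13 held 0 and 3 reads over all RBPs.

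**Figure D2:**
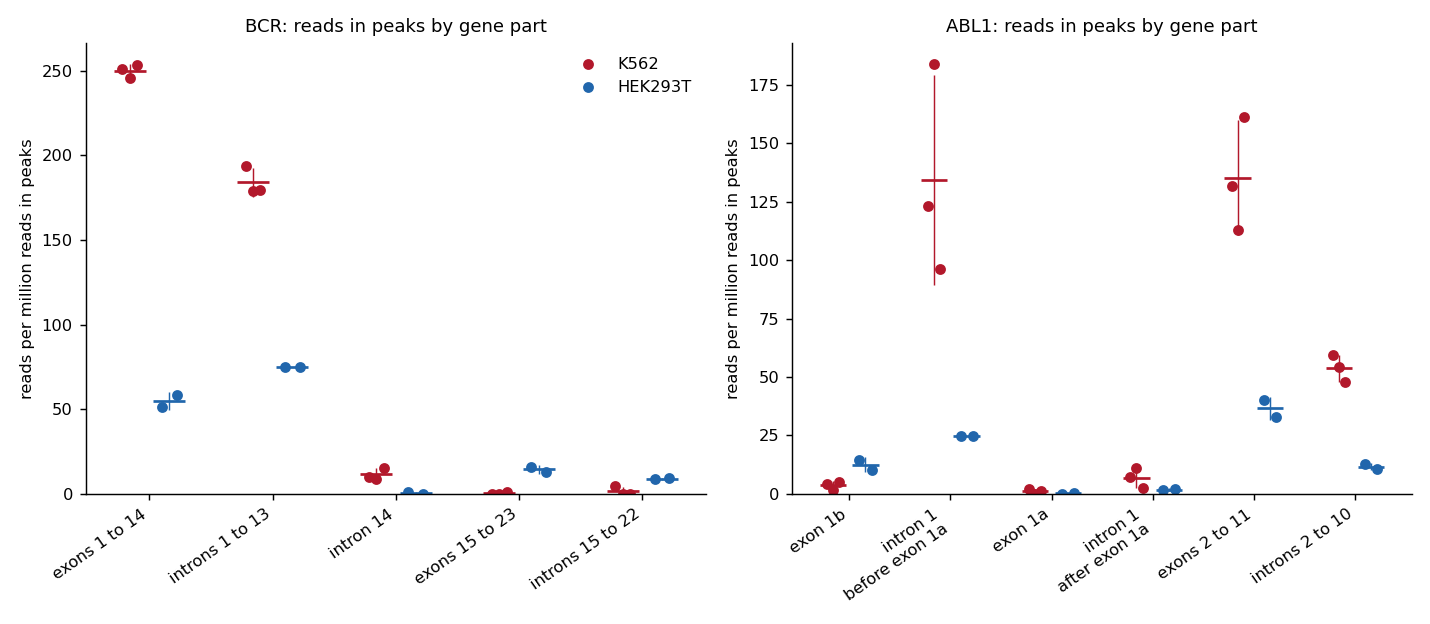
Reads scaled to 1000000 reads in peaks (RPM, linear axis from 0) in parts of BCR (left) and ABL1 (right), with a point for each 10plex pool, horizontal lines at group means and vertical lines at ± SD (n = 3 for K562, n = 2 for HEK293T). K562 lies above HEK293T in BCR up to intron 14 and below it in exons 15 to 23, where the K562 pools had 0, 0 and 3 reads; in ABL1, K562 lies below HEK293T at exon 1b and above it on both sides of exon 1a in intron 1 and beyond, with overlap at exon 1a.

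At ABL1 the difference lay at the other end of the gene. Exon 1b held 8, 6 and 12 reads in K562 and 70 and 71 in HEK293T, or 3.64 ± 1.75 (SD, n = 3) and 12.4 ± 3.18 (SD, n = 2) RPM, 3.41-fold higher in HEK293T. Exon 11, the last exon with the C-terminal coding sequence and the 3′ UTR, held 208, 300 and 330 reads in K562 and 153 and 150 in HEK293T, or 111.1 ± 28.2 (SD, n = 3) and 26.8 ± 7.47 (SD, n = 2) RPM, 4.15-fold higher in K562. The groups did not overlap at either exon, and the direction was opposite. Exons 1b and 1a together held 12 of 272 exon reads (4.41%), 6 of 399 (1.504%) and 15 of 391 (3.84%) in K562. In HEK293T they held 70 of 261 (26.8%) and 74 of 305 (24.3%). Exon 1a alone had 4, 0 and 3 reads in K562 and 0 and 3 in HEK293T, too few to rank. The K562 share was 3.25% ± 1.54 (SD, n = 3) and the HEK293T share 25.5% ± 1.81 (SD, n = 2; exact two-sided permutation p = 0.2, the smallest possible).

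Split at exon 2 with introns counted, no difference between the parts of ABL1 was called. The 3′ part held 377, 582 and 487 reads in K562 and 252 and 305 in HEK293T, and the 5′ part, which includes intron 1, held 269, 684 and 245 and then 195 and 261. The share of the 3′ part was 57.0% ± 10.4 (SD, n = 3) in K562 and 55.1% ± 1.76 (SD, n = 2), and the groups overlapped. The log2 ratio of the 3′ over the 5′ part differed by 0.12 ± 0.42 (SE; limma, adjusted p = 0.885), a direction in which 3.97% of all genes were called. Its sign turned without K562 replicate 3 (-0.16, limma adjusted p = 0.797) and with the common depth floor (-1.87, limma adjusted p = 0.196). With enriched peaks only it was 2.94 ± 0.75 (SE; limma, adjusted p = 0.0592). With exonic peaks only, the difference was 3.38 ± 0.42 (SE; limma, adjusted p = 0.0135), where 1.96% of 10160 genes were called in that direction and 6.13% in either.

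Along ABL1, the first 20 kb of the gene held 8, 15 and 19 reads in K562 and 95 and 91 in HEK293T, an RPM 2.99-fold higher in HEK293T, and most of the HEK293T reads lay in exon 1b. Without the exon, intron 1 held 0, 9 and 7 reads in this window in K562 and 25 and 20 in HEK293T, or 1.86 ± 1.63 (SD, n = 3) and 4.05 ± 1.68 (SD, n = 2) RPM, and the groups overlapped. From 20 kb to 40 kb K562 held 48, 145 and 39 reads and HEK293T 39 and 58, an RPM 3.35-fold higher in K562, and in every later 20-kb window K562 was higher without overlap. Between 5 and 10 kb no K562 pool had a read in a peak, against 6 and 3 in HEK293T, and between 10 and 15 kb K562 had 0, 0 and 3 against 6 and 11, where the groups overlapped in RPM. Between 15 and 20 kb the counts were 0, 9 and 4 against 4 and 3, also with overlap. RBFOX2, which has most of its ABL1 reads in this intron, had no K562 intron peak before 21.8 kb, while its HEK293T libraries held 9 and 17 intron reads in the first 20 kb. The RBFOX2 libraries held 301167, 468382 and 245681 reads in peaks in K562 and 1220159 and 1852130 in HEK293T. At the lower depth a few reads may form no peak. How far depth set this absence, or that between 5 and 10 kb, was not tested. FAM120A had its first K562 intron peaks at 19.8 kb (4 reads in replicate 3) and 19.9 kb (3 reads in replicate 2). The other K562 intron peaks before that were a PUM2 peak of 3 reads at 14.7 kb and a LIN28B peak of 6 reads at 16.5 kb, each in a single replicate.

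**Figure D3:**
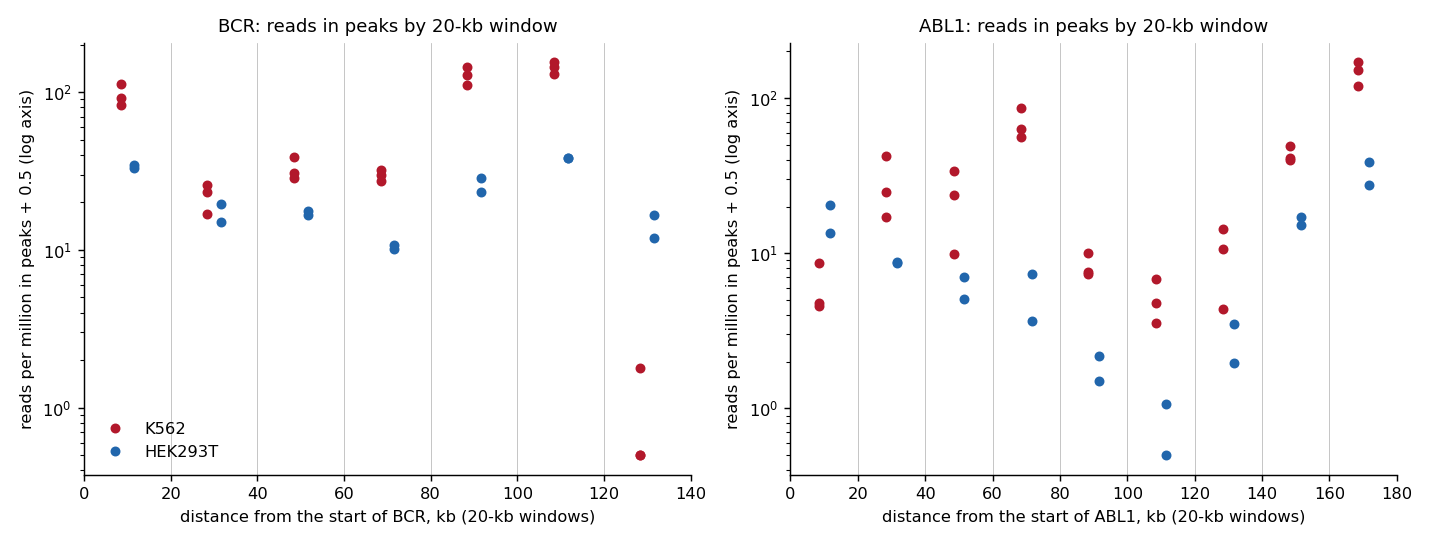
RPM in peaks plus 0.5 (log axis) in 20-kb windows from the start of BCR (left) and ABL1 (right), with a point for each 10plex pool and the last window of each gene shorter than 20 kb. K562 lies below HEK293T in the last window of BCR (0, 0 and 3 reads against 77 and 80) and in the first window of ABL1 (8, 15 and 19 against 95 and 91), and above it in every later window of ABL1, such as 60 to 80 kb (124, 301 and 130 reads against 15 and 48).

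The window from 60 to 80 kb of ABL1 held 124, 301 and 130 reads in K562 and 15 and 48 in HEK293T, 13.7-fold higher in RPM in K562. FAM120A, an RNA-binding scaffold protein, gave 68, 212 and 67 of the K562 reads and 0 and 6 in HEK293T. IGF2BP2 gave 12, 29 and 35 in K562 and 0 and 0 in HEK293T, and RBFOX2 gave 35, 48 and 10 against 15 and 39. Scaled to each library's own reads in peaks, RBFOX2 was at 86.5 ± 40.2 (SD, n = 3) RPM in K562 and 16.7 ± 6.20 (SD, n = 2) in HEK293T, 5.19-fold higher in K562, and FAM120A at 113.3 ± 20.2 (SD, n = 3) and 1.58 ± 2.24 (SD, n = 2). The lines did not overlap for any of these 3 RBPs on this scale. A FAM120A site in this window, at chr9:130781753-130781905 and 53.3 kb from the nearest exon, was enriched in all 3 K562 pools with 17, 33 and 9 reads. In all, intron 1 before exon 1a held 243, 640 and 224 reads in K562, with replicate 2 well above the others, and 118 and 172 in HEK293T.

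By RBP, BCR was called higher in K562 in 7 of 10 fits and ABL1 in 5 of 9, each fit made on the 5 libraries of that RBP. The share of all genes called higher in K562 was 5.04% for DDX3, 3.51% for EIF3G, 10.8% for FAM120A, 7.27% for IGF2BP2 and 6.47% for LIN28B. It was 11.9% for PRPF8, 5.36% for PUM2, 7.93% for RBFOX2, 5.14% for SF3B4 and 3.21% for ZC3H11A. For the spliceosome proteins, the BCR difference was 1.88 ± 0.23 (SE) with PRPF8 (limma, adjusted p = 0.00385) and 2.23 ± 0.26 with SF3B4 (0.0059), and the ABL1 difference was 1.65 ± 0.16 (0.00162) and 2.51 ± 0.32 (0.00704). Above the common depth the BCR call with SF3B4 was lost (6.4003, limma adjusted p = 0.0811). For RBFOX2, a regulator of alternative splicing, it was 1.72 ± 0.19 (SE) at BCR (limma, adjusted p = 0.00278) and 2.17 ± 0.24 at ABL1 (0.00278).

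Among the other RBPs, FAM120A differed by 1.70 ± 0.14 (SE) at BCR (limma, adjusted p = 0.00115) and 2.92 ± 0.16 at ABL1 (0.000491). Introns held 45.7% to 58.2% of its BCR reads in the K562 libraries and 44.1% to 50.7% in HEK293T. For ABL1 the shares were 51.8% to 74.6% and 10.7% to 29.0%. IGF2BP2, which binds and stabilises mRNAs, differed by 1.54 ± 0.21 (SE) at BCR (limma, adjusted p = 0.00586) and 2.23 ± 0.28 at ABL1 (0.00452), where the call was lost above the common depth (5.83, 0.129). DDX3, an RNA helicase that acts in translation initiation, differed by 1.64 ± 0.17 (SE) at BCR (limma, adjusted p = 0.00216), while at ABL1 the value was 0.46 ± 0.32 (0.353). The 5′ part of ABL1 had 6, 0 and 7 DDX3 reads in K562 and 35 and 32 in HEK293T, all of the latter in exon 1b, and the 3′ part 6, 25 and 32 against 19 and 18. LIN28B, which binds let-7 precursors and mRNAs, was called at BCR (2.32 ± 0.51 SE, limma adjusted p = 0.0429) and not at ABL1 (2.098 ± 0.72, 0.143); the BCR call was lost without any single K562 replicate, with adjusted p of 0.0904, 0.106 and 0.111, and above the common depth (0.232), while the ABL1 value was called above the common depth (7.61, 0.00258) and without HEK293T replicate 1 (3.15, 0.000854). No call was made for EIF3G, a subunit of initiation factor 3, at either gene (0.97, limma adjusted p = 0.352; 0.77, 0.598). ZC3H11A, an mRNA export protein, had 29, 18 and 6 reads at BCR in K562 and 3 and 0 in HEK293T, a difference of 5.60 ± 1.87 (SE; limma, adjusted p = 0.128), and at ABL1 5.85 ± 1.66 (0.0828). PUM2, a translational repressor, had 3, 0 and 0 reads at BCR in K562 and 0 and 3 in HEK293T and too few at ABL1 to be tested.

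**Figure D4:**
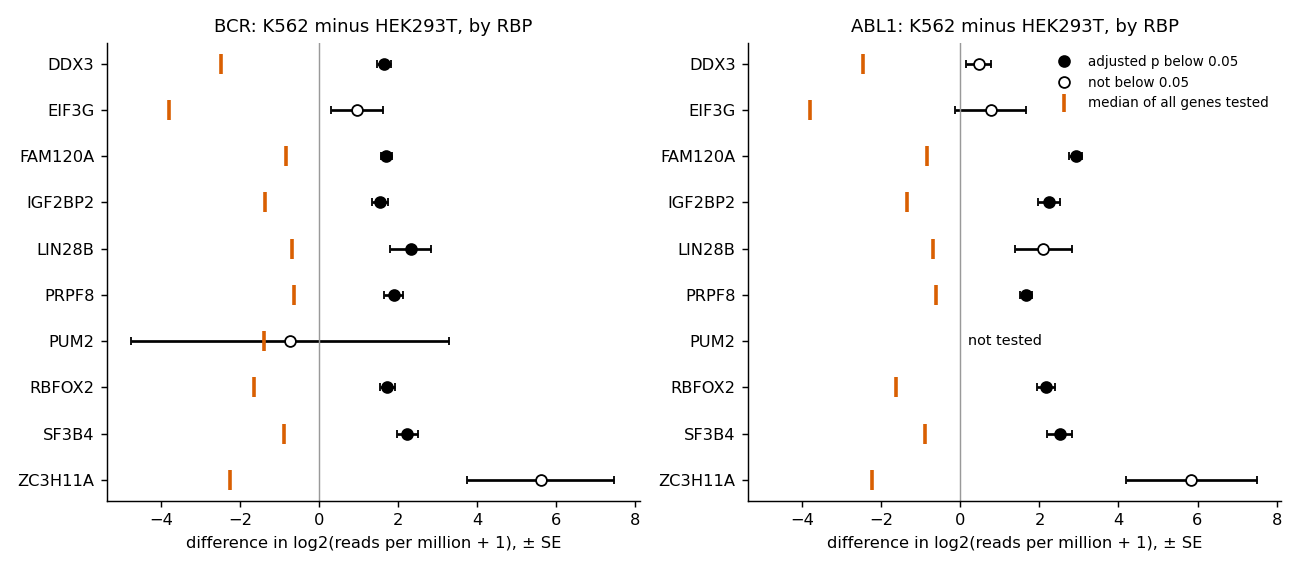
Difference in log2(RPM + 1) between K562 and HEK293T for BCR (left) and ABL1 (right) in each RBP's 5 libraries, with bars at ± SE, filled points for limma adjusted p below 0.05 and orange ticks at the median of all genes tested with that RBP. All points but PUM2 at BCR (-0.73 ± 4.02) lie to the right of 0, and the medians of all genes lie to the left of it.

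The order of the RBPs on these genes was set beside their share of the whole pool, as the log2 of a library's share of its reads in the gene over that share in the other 9 libraries. RBFOX2 was the highest among RBPs with reads in every pool at BCR, 1.21 ± 0.25 (SD, n = 3) in K562 and 1.25 ± 0.36 (SD, n = 2) in HEK293T, and FAM120A the lowest with -1.65 ± 0.15 and -1.73 ± 0.17. At ABL1 RBFOX2 was at 1.01 ± 0.32 (SD, n = 3) in K562 and 0.88 ± 0.39 (SD, n = 2) in HEK293T, beside EIF3G in HEK293T at 1.17 ± 0.92, from which it did not stand apart. At ABL1 the values of DDX3, -0.66 ± 0.42 in K562 and 0.91 ± 0.15 in HEK293T, and of FAM120A, -0.40 ± 0.08 and -1.57 ± 0.04, did not overlap between the lines, and they moved in opposite directions. At BCR SF3B4 went from 0.28 ± 0.37 in K562 to -0.47 ± 0.13 in HEK293T and PRPF8 from 0.59 ± 0.39 to 0.15 ± 0.27, and PRPF8 values lay within their spread of each other. These shares carry no test.

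Enriched peaks were taken at a −log10 P above 3 and a log2 fold above 3 over the external background, and a site was shared if it was enriched and overlapped by at least 1 nt in all replicates. BCR had 30 such sites in K562 over 7 RBPs, 12 in the HEK293T 10plex pools over 6 RBPs and 5 in singleplex RBFOX2. PRPF8 had 13 of the K562 sites, RBFOX2 7, SF3B4 5, DDX3 2 and FAM120A, IGF2BP2 and LIN28B 1 each. None of the 30 lay beyond intron 14, and among the 12 HEK293T sites only the LIN28B site in the last exon did. ABL1 had 16 in K562 over 5 RBPs, with 7 of PRPF8, 4 of RBFOX2, 2 each of FAM120A and IGF2BP2 and 1 of SF3B4, and 4 in HEK293T over 3 RBPs. None of the 16 lay in exon 1b, where DDX3 had 2 shared sites in HEK293T. Site counts, and the absence of a site from a part, are not compared between the lines. Their backgrounds, depths and replicate numbers differ, and shared sites were not counted over all genes.

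**Figure D5:**
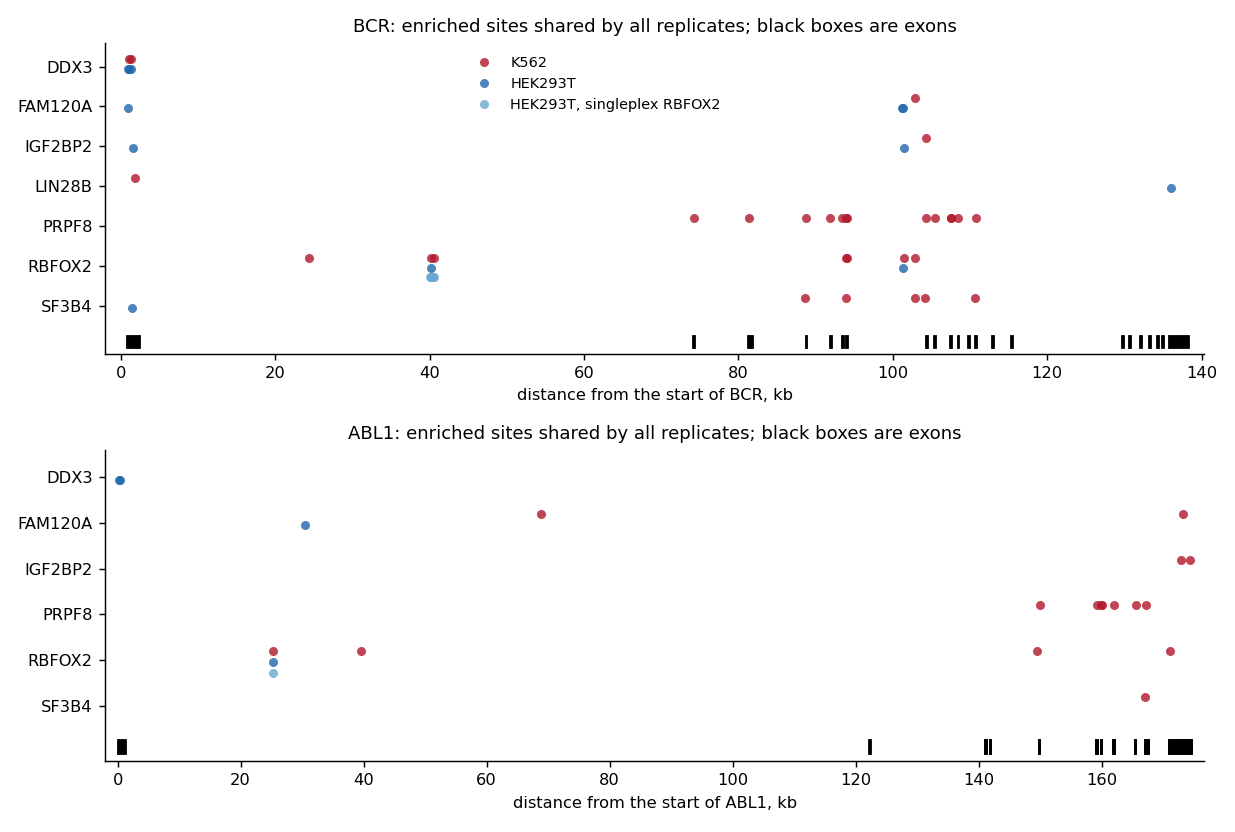
Positions (kb from the gene start) of enriched sites shared by all replicates of a group in BCR (upper) and ABL1 (lower), by RBP, with exons as black boxes. The K562 sites of BCR, 30 in all, end at intron 14 and 13 of them belong to PRPF8; the 4 HEK293T sites of ABL1 lie in exon 1b and intron 1.

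The site with the highest fold of PRPF8 at BCR in K562 was at exon 8 (chr22:23273701-23273835), with 20, 24 and 27 reads and a log2 fold of 7.27 ± 0.05 (SD, n = 3). Most K562 peaks had at most 1 background read, so the order of folds within a K562 library largely follows the reads in the peaks. PRPF8 sites at ABL1 all lay between exon 4 and intron 9, and the highest lay across the 5′ splice site of exon 5 (chr9:130872153-130872291) with 11, 11 and 18 reads and a log2 fold of 6.42 ± 0.29 (SD, n = 3). For SF3B4 the highest were at BCR exon 8 (chr22:23273634-23273692; 9, 18 and 8 reads, log2 fold 6.91 ± 0.14) and at the 3′ end of ABL1 intron 8 (chr9:130880014-130880074; 12, 15 and 9 reads, 7.02 ± 0.33). IGF2BP2 had its highest ABL1 site in the 3′ UTR (chr9:130887220-130887369) with 17, 11 and 50 reads, replicate 3 above the others. In HEK293T DDX3 had its highest sites in the 5′ UTR of BCR (chr22:23180621-23180663; 5 and 9 reads) and in exon 1b of ABL1 (chr9:130713388-130713493; 13 and 14 reads), and its highest BCR site in K562 was at the start of the coding sequence in exon 1 (chr22:23180931-23181057; 5, 18 and 12 reads). Against the other barcodes of the pool (CC) in K562 replicate 3, 16 of 162 BCR peaks and 14 of 125 ABL1 peaks passed the same limits, or 9.88% and 11.2%, against 15.9% of all 234689 peaks of that replicate. Over the external background 80 and 55 passed, and the share of all peaks of that replicate that did so is not given here. For PRPF8 at BCR, 22 of 24 peaks passed over the external background and 0 over the CC, where 15.4% of all PRPF8 peaks passed. In this replicate 97.4% of all PRPF8 peaks had 1 read in the external background, so passing it is not read as a result about BCR. For RBFOX2 at BCR 23 and 9 of 47 passed, against 11.5% of all RBFOX2 peaks over the CC.

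The RBFOX2 site of BCR with the highest fold in K562 and in the singleplex libraries lay in intron 1, 33.9 kb before exon 2 (chr22:23219836-23219910 in K562), and held the GCATG of the sequence BCR RBFOX2 23219848. It had 25, 47 and 35 reads in K562, 26 and 21 in the HEK293T 10plex pools and 98 and 64 in the singleplex libraries, with log2 folds of 7.36 ± 0.34 (SD, n = 3), 4.69 ± 0.82 and 5.93 ± 0.17 over backgrounds that are not comparable. The ABL1 site in intron 1, at chr9:130738295-130738416 in K562, held the GCATG of ABL1 RBFOX2 130738317 and had 18, 35 and 5 reads in K562, 10 and 18 in HEK293T and 30 and 20 in singleplex. Both were shared by every RBFOX2 group, and K562 replicate 3 was the lowest at the ABL1 site. A site in BCR intron 8 was shared in the 10plex pools with 12, 22 and 6 reads in K562 and 25 and 37 in HEK293T, where it had the highest fold of the gene's RBFOX2 sites (log2 fold 5.07 ± 0.20, SD, n = 2), and FAM120A and IGF2BP2 also had shared HEK293T sites within the same stretch.

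GCATG was searched on the strand of the peak. Peaks were pooled over the replicates of a line, so a site found in several replicates is counted more than once. In K562 it stood in 15 of 61 enriched RBFOX2 peaks of BCR (24.6%) and 10 of 43 of ABL1 (23.3%), against 19.2% of all 45264 enriched RBFOX2 peaks and 3.54% of those of the other RBPs. In HEK293T it stood in 7 of 10 at BCR and 1 of 3 at ABL1, against 38.2% of all. The other RBPs at ABL1 in K562 held it in 15 of 139 peaks (10.8%). TGTANATA, the motif of PUM2, was in none of its 3 enriched K562 peaks and its 1 enriched HEK293T peak in these genes. It was in 5.87% and 4.66% of all its enriched peaks in the 2 lines, so these few peaks cannot show a difference from those shares.

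The singleplex RBFOX2 libraries of HEK293T were made apart from the pools. In them BCR had 1222 and 619 reads, 346.2 and 360.3 RPM, with 105 and 35 in the 3′ part and 97.6% and 95.2% in introns. ABL1 had 587 and 219 reads, 166.3 and 127.5 RPM, with 479 and 184 before exon 2. The BCR 3′ part, where the 3 K562 RBFOX2 libraries of the 10plex pools had 0 reads of 256, 361 and 260, had reads in all 4 HEK293T RBFOX2 libraries. SLBP, which binds histone mRNAs, had 11 and 0 reads at BCR and 6 and 6 at ABL1 in K562.

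Other genes of the pathway and of the region were read from lists. Of 20 partners of BCR-ABL1 signalling 17 were tested, 9 were called higher in K562 and 3 lower, and the median difference was 1.25, against 14.1% called higher, 40.6% called lower and a median of -0.68 over all genes. The highest was STAT5A, a transcription factor activated by the kinase, with 7.98 and no reads in peaks in HEK293T, so that the size depends on the pseudocount, and the lowest was ABI2, an ABL interactor, with -1.82. Among genes that stay on the fusion side of the break, 7 of 9 were tested, 2 were higher and 4 lower, with a median of -2.34. The higher pair lies beyond ABL1: FAM78A with 7.13 and no reads in peaks in HEK293T, and NUP214, a nuclear pore gene, with 3.35; the lowest was GNAZ, beside BCR, with -5.999 and no reads in peaks in K562. Among genes on the other side of the breaks 7 of 12 were tested, 0 were called higher and 6 lower by limma, and all 7 differences were negative, with a median of -1.04, a highest value of -0.71 in DERL3 and a lowest of -3.29 in SMARCB1.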

How the data were processed

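ABC libraries of 10 RBPs in K562 and HEK293T pools and singleplex libraries were compared by gene; samples were grouped by their titles. The authors trimmed reads (cutadapt 2.8), aligned them to GRCh38 (STAR 2.7.6), removed PCR duplicates and called CLIPper peaks, deposited with a p-value each. For merged peaks, the values deposited by the authors are the −log10 of P (no higher than 400) and the log2 fold against an external background. The 11-column peak lists hold no read numbers, so reads were recovered as the whole numbers behind fold and P of the merged peaks. This succeeded for at least 99.36% of peaks in each library. Names hold the number only in the singleplex RBFOX2 lists and in 10plex K562 replicates 1 and 3. There, 96.83% to 99.57% of recovered values equalled it. The lists of K562 replicate 2, of the HEK293T pools and of SLBP could not be checked in this way. Overlapping or touching peaks of a library were joined, and each run was given the reads of its highest peak. Reads of the other peaks in a run are thus not in the read sums and totals. Peaks were assigned by an overlap of at least 1 nt to GENCODE 44 genes, a later release than that of the authors. Reads summed over a pool and scaled to 1000000 reads in peaks were fitted with limma 3.58.1 as log2(value + 1), for genes with reads in at least 2 pools, with Benjamini-Hochberg adjustment; scripts were tested on simulated data. Apart from the counts of peaks over the CC in K562 replicate 3, no values over the CC were used. Reads outside peaks are not in these values. Sites named are, per gene, line and RBP, the shared site of highest fold, and RBFOX2 sites with GCATG. The members, lists, splits and tests were chosen with earlier results of these data known.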

Additional observations from a re-analysis of the deposited data

How the results depend on the processing

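The whole-gene differences of BCR and ABL1 were positive under every alternative run, from 1.43 to 2.58 for BCR and from 1.81 to 4.25 for ABL1, and from 1.52 to 1.56 and from 1.83 to 2.03 on leaving out each pool in turn. The ABL1 call held under all of them, and the BCR call under all but the scale by usable reads (1.63, limma adjusted p = 0.0677). Genes called over the whole gene, 7423 with the settings reported, numbered 4835 with reads in all 5 pools, 4180 with usable reads as the scale and 4727 above the common depth, and between 4196 and 7555 without each pool in turn, with 4369 without HEK293T replicate 1 and 4196 without HEK293T replicate 2.

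The difference between the parts of BCR was positive throughout, and its call was lost with a pseudocount of 0.25 (6.001, limma adjusted p = 0.064) and with each RBP weighted equally (4.62, 0.0715), an alternative chosen after seeing the data. It ran from 4.52 to 5.72 without each pool in turn, and the call was lost without HEK293T replicate 1, HEK293T replicate 2, K562 replicate 2 or K562 replicate 3 (adjusted p from 0.0517 to 0.123). The difference between the parts of ABL1 was -1.87 above the common depth, 2.94 with enriched peaks only (limma, adjusted p = 0.0592) and 3.38 with exonic peaks only, and ran from -0.16 to 0.44 without each pool in turn. Genes called by parts, 907 with the settings reported, numbered 1477 with a pseudocount of 4, 282 with both parts in all 5 pools, where BCR itself could not be fitted, 152 above the common depth and 398 with equal weights. Without each pool in turn they numbered between 14 and 515, and were 15 without HEK293T replicate 1 and 14 without HEK293T replicate 2. The cause of these changes was not tested.

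With −log10 P above 5 and log2 fold above 4, enriched peaks fell from 256 to 144 at BCR in K562 and from 90 to 44 in HEK293T. At ABL1 they fell from 182 to 69 in K562 and from 38 to 14 in HEK293T. BCR held 546 merged peaks in the K562 pools and 319 in the HEK293T pools, and ABL1 463 and 210. Over all genes, 45264 RBFOX2 peaks and 326179 of the other RBPs were enriched in K562, and 33486 and 378473 in HEK293T. The counts at BCR and ABL1 are not read as more or fewer than elsewhere. Over the CC in K562 replicate 3 they numbered 16 at BCR and 14 at ABL1. Of 129 alternatives to the 19 differences by RBP, 116 kept direction and side of the threshold, 6 lost the call (LIN28B at BCR in 4, SF3B4 at BCR and IGF2BP2 at ABL1, both above the common depth), 5 gained it (LIN28B and ZC3H11A) and 2 turned, both PUM2 at BCR (-4.34 to 0.70 without each pool in turn).

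The titles give both HEK293T pools the number 1, and the second was numbered 2 here. Deviations of pools with the same number correlated at -0.141 and -0.0353 over 9527 genes. With 2 HEK293T pools each deviation is the mirror image of the other, so these values cannot show whether the pools pair. K562 replicate 3 and HEK293T replicate 1 share an original number in their titles and correlated at 0.094. With a replicate block the whole-gene difference was 1.53 for BCR (limma, adjusted p = 0.00437) and 1.97 for ABL1 (0.00244). The difference between the parts was 5.10 for BCR (0.00155) and -0.16 for ABL1 (0.855). K562 replicate 3 has no HEK293T partner, so these estimates equal those on leaving it out and are not a separate result. On that same estimate the BCR part call was lost without K562 replicate 3 (limma, adjusted p = 0.0517). Genes called with the block were 7319 over the whole gene and 1150 by parts.

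Reads below the peak caller's limit are not in these values, so a part without a peak has no upper limit here, and PUM2, with the fewest reads, gave no usable comparison.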
